A study of Mus musculus with 6 samples.

Results

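The genes of antigen presentation by the major histocompatibility complex (MHC) were followed in RNA of whole liver, taken from 3 mice of a control group and 3 mice in which lipophagy had been induced. The members were all rows of the expression table whose name begins with H2-, 43 in number, together with B2m, Cd74, Ciita, Tap1, Tap2, Tapbp, Tapbpl, Erap1 and Nlrc5. They made up 52 of 24346 rows, of which 39 belong to class I, 12 to class II and 1, H2-Ke6, to neither class. Male C57BL/6 mice (C57BL/6J in the study's methods) were 8 weeks old when they were put on CDAHFD, a high-fat diet without choline whose protein is replaced by L-amino acids, and ate it for 6 weeks. They then received a single intravenous dose of adeno-associated virus (AAV8), were returned to normal chow and were analysed 2 weeks later. In lipophagy livers the virus encoded LDTS-eLIR, the lipid droplet-targeting sequence of perilipin fused to an engineered LC3-interacting region that recruits autophagosomes. In control livers it encoded LDTS-LIR mut, in which the affinity for LC3 was abolished, so both groups carried mCherry and the droplet-targeting part, which itself had a mild lipogenic effect. The liver-specific pTBG promoter restricted both constructs to hepatocytes, whereas the RNA came from whole liver with all of its cell types.

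Class I molecules consist of a heavy chain and the light chain β2-microglobulin, and they carry peptides from the cell interior to the surface of nearly all nucleated cells for CD8+ T cells. TAP1 and TAP2 pump these peptides into the endoplasmic reticulum, tapasin (Tapbp) holds the empty heavy chain at the pump, and ERAP1 trims the peptides. Class II molecules display peptides of ingested proteins to CD4+ T cells and are mostly made by dendritic cells, B cells and macrophages, including the Kupffer cells of the liver. The invariant chain CD74 guards their groove until H2-DM exchanges its remnant for a peptide, and the transactivators NLRC5 and CIITA switch on class I and class II genes, respectively.

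Values are FPKM, the fragments mapped to a gene divided by its transcript length and by all mapped fragments, as the authors deposited them. Steps in the low values corresponded to depths of about 22.9 to 33.9 M fragments per liver. The summed FPKM was 622696 to 681138 in control livers and 709993 to 782392 in lipophagy livers, and the summed level of 8 hepatocyte markers was 62378 to 70985 and 75151 to 98955, respectively. Alb, with means of 37748 and 52739 FPKM, made up most of that sum and of its difference, and 1 of the 8, Apoa1, had a lower mean in lipophagy livers. The members' part of the total was 1.02%, 1.04% and 1.02% in control livers and 0.852%, 0.896% and 0.917% in lipophagy livers, without overlap. Its divisor, the total, was higher in every lipophagy liver than in any control liver. A lower share is therefore not by itself a lower level of the members. The summed class I heavy chains overlapped between groups, with controls at 3119, 3367 and 3395 FPKM against 3596, 3531 and 3194 FPKM. The sum of H2-Aa, H2-Ab1 and H2-Eb1 did not overlap, with controls at 207, 197 and 215 FPKM against 161, 192 and 172 FPKM. Differences between groups were tested with limma on log2(FPKM + 1), a scale that understates the change of genes with low values, and every log2 change below is lipophagy minus control. The labels number the livers but do not say more of their origin, so p-values measure the spread between these livers. What part the higher FPKM totals and summed hepatocyte markers of lipophagy livers have in the values below was not tested.

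No member passed the test adjusted over all genes. The lipophagy mean of the 35 tested members ran from 48.4% of the control mean for H2-Q2 to 141% for H2-M2, both with overlapping groups and values around or below 1 FPKM. H2-Aa, H2-Ab1, H2-Eb1 and the invariant chain Cd74 averaged 83.9%, 87.2%, 83.4% and 85.8% of the control mean, and of the genes that supply peptides to class I, Tap1, Tapbp and Tap2 averaged 79.4%, 83.2% and 89.1%, and Tapbpl and Erap1 103% and 117%. The classical class I chains H2-K1 and H2-D1 averaged 101% and 92.1%.

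Of the 52 members, 11 were at 0 in every liver, 6 stayed below a mean of 0.5 FPKM, and 35 were tested. None of the 35 had an adjusted p below 0.05 (limma with Benjamini-Hochberg adjustment over 11493 genes, members' adjusted p 0.156 to 0.962), and 3 of all tested genes did (0.0261%). At an unadjusted p below 0.05 stood 19.5% of all tested genes and 8 of the 35 members, of which 7 were lower in lipophagy livers, 20.0% of those tested, against 7.97% of all tested genes. In the other direction 1 member, Erap1, was higher, 2.86% against 11.5% of all tested genes. In 11 members all lipophagy livers lay below all control livers, 31.4% against 10.8% of all genes, and in 1 member all lay above, 2.86% against 15.4%. The median log2 change was -0.12 over the members and 0.0196 over all tested genes.

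The counts by class were as follows. Of the 8 tested class II members 7 had a lower mean in lipophagy livers, 3 of them with an unadjusted p below 0.05 and 4 without overlap of the groups, and the median log2 change was -0.22. Of the 26 tested class I members 16 had a lower mean, 4 with an unadjusted p below 0.05, and 10 had a higher mean, 1 with such a p. The class I median was -0.086. Over all tested genes 45.5% had a log2 change below 0. Whether the classes differed was not tested. When the livers were quantile normalized, 14 members were lower at an unadjusted p below 0.05 and 0 were higher, while over all genes the split moved from 916 lower and 1327 higher to 899 lower and 745 higher. The number of lower members also hung on single livers, since it was 2 without control liver 3, 2 without lipophagy liver 1, and 5 to 9 without any other liver. Over all tested genes the share of lower ones was 5.24% without control liver 3 and 5.78% without lipophagy liver 1.

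**Figure D1:**
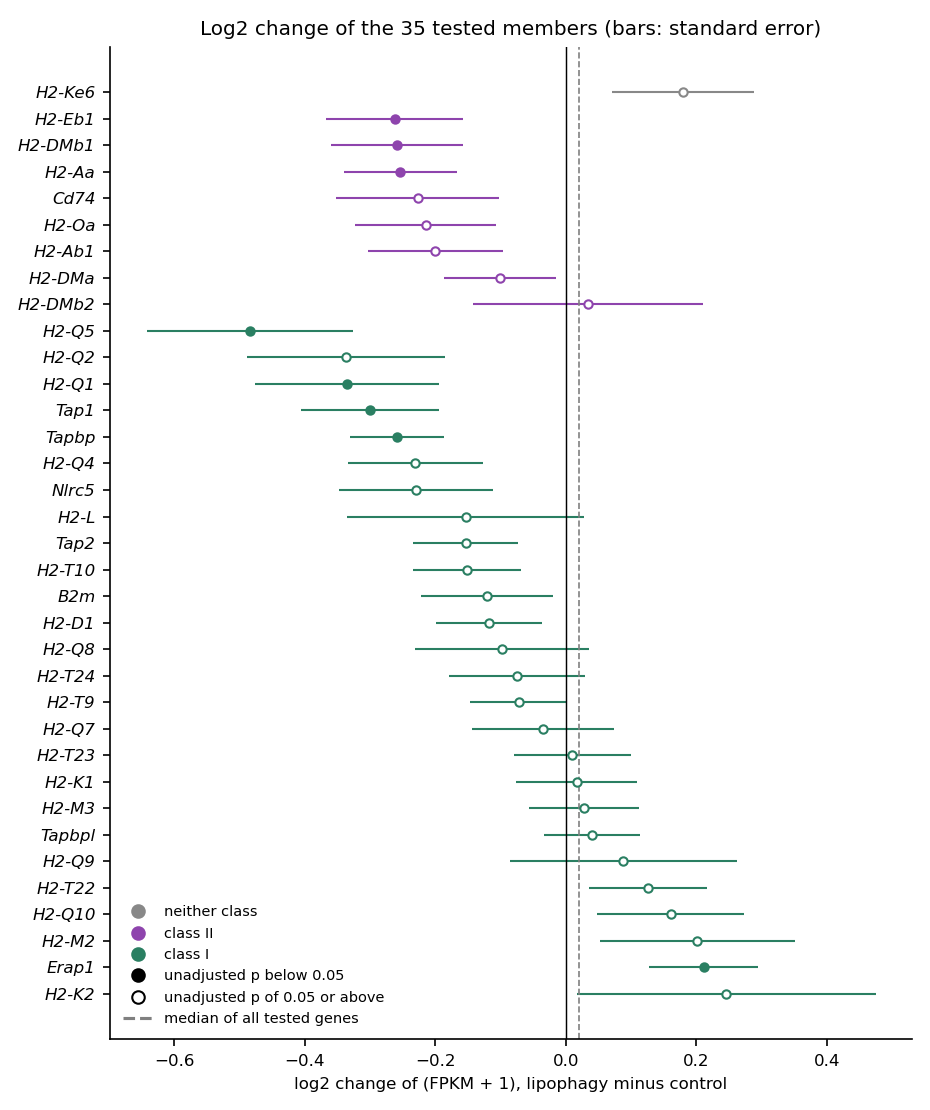
Log2 change of FPKM + 1, lipophagy minus control, for the 35 tested members on the horizontal axis, with the standard error as bars and 3 livers per group. Points are coloured by class and filled where the unadjusted limma p was below 0.05, which held for 7 members on the left and for Erap1 on the right, while the dashed line marks the median of all tested genes at 0.0196.

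B2m, the light chain shared by class I molecules, had the highest level of all members. It stood at 2716, 2964 and 2949.8 FPKM in control livers and at 2589, 2507 and 2849 FPKM in lipophagy livers, where lipophagy liver 3 lay among the controls. The log2 change was -0.12 (SE 0.101, limma adjusted p = 0.520). The gene lies at chr2:122147687-122153082 (GRCm38), outside the MHC on chromosome 17.

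The classical heavy chains H2-K1 and H2-D1 present peptides to CD8+ T cells and lie at chr17:33996012-34000619 and chr17:35263094-35267497. H2-K1 was at 797, 897 and 855 FPKM in control livers and at 859.7, 909.8 and 809.6 FPKM in lipophagy livers. The groups overlapped, with a log2 change of 0.017 (SE 0.0931, limma adjusted p = 0.935) that became -0.21 under quantile normalization. H2-D1 was at 451, 495 and 478 FPKM in control livers and at 425, 447 and 441 FPKM in lipophagy livers. Here every lipophagy liver lay below every control liver, although the log2 change was small at -0.12 (SE 0.0818, limma adjusted p = 0.443).

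Because both chains were measured in the same livers, their ratio does not depend on the scaling between livers. H2-D1 amounted to 0.566, 0.552 and 0.560 of H2-K1 in control livers and to 0.494, 0.491 and 0.544 in lipophagy livers. The groups did not overlap, and lipophagy liver 3 stood nearest to the controls. With 3 livers per group the smallest p that an exact two-sided permutation test allows is 0.1, so ratios are given as descriptions. H2-D1 shared 4.44% of its 100-base windows with transcripts of other members, mostly H2-Q1, and H2-K1 shared 0%, so some fragments of H2-D1 could be assigned to a relative.

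The promoters of these chains carry binding sites in a fixed order, and the stretch with the κB and interferon-response elements is shown for both classical chains and for H2-Q4 and H2-Q10 so that they can be compared. All sequences were read from RefSeq promoters (GRCm38.p6), 5′ to 3′ on the strand of the gene, and capitals mark a match to the κB letters of H2-K1, GGGGATTCCCC, or to its interferon-response letters, AGTTTCNNTT, where N is any base. H2-K1 matches both by construction.
H2-K1 chr17:34000430-34000459, minus strand: tGGGGATTCCCCatctccacAGTTTCACTT
H2-D1 chr17:35262922-35262951, plus strand: tGGGGATTCCCCatctcctcAGTTTCACTT
H2-Q4 chr17:35379442-35379471, plus strand: tggggatttcccatctccccAGTTTCACTT
H2-Q10 chr17:35469912-35469941, plus strand: tgaggactccccatctccccAGTTTCACTT
Counted from 1 at the 5′ end of each stretch, H2-K1 differed from H2-D1 by T19A alone. H2-Q4 differed from H2-D1 by C9T and T19C, and H2-Q10 by G3A, T7C and T19C. Searched on both strands of 32851 promoter windows (250 bases before to 50 after each start), the κB letters stood in 10 windows (0.0304%), among them those of 3 members, H2-K1, H2-D1 and H2-Q6. The interferon-response letters stood in 1.72% of windows and in those of 11 of the 35 members with a promoter. A match describes letters, not a bound site.

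H2-Q10, a class I chain that the liver secretes, had the highest FPKM of all heavy chains. It stood at 1420.2, 1558 and 1603 FPKM in control livers and at 1877, 1752 and 1507 FPKM in lipophagy livers. Lipophagy livers 1 and 2 lay above all controls and lipophagy liver 3 lay among them (log2 change 0.16, SE 0.113, limma adjusted p = 0.448), and quantile normalization turned the sign to -0.022. The log2 change of H2-Q10 was 0.091 without lipophagy liver 1 and 0.25 without lipophagy liver 3. H2-Q10 took 45.5%, 46.3% and 47.2% of the summed FPKM of class I heavy chains in control livers and 52.2%, 49.6% and 47.2% in lipophagy livers. Its ratio to H2-K1 was 1.78, 1.74 and 1.87 in control livers and 2.18, 1.93 and 1.86 in lipophagy livers. The class I chains without H2-Q10 summed to 1766 ± 59.1 FPKM in control livers, compared with 1728 ± 46.7 FPKM in lipophagy livers (SD, n = 3).

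The 180 bases before the start of H2-Q10 are shown because this chain, alone among the 4 above, had no match to the CCAAT letters of the Y box. That box, written TGATTGG or in reverse CCAATCA, is bound by the factor NF-Y, and it is shown in capitals for H2-D1 and H2-Q4.
H2-Q10 chr17:35469909-35470088, plus strand: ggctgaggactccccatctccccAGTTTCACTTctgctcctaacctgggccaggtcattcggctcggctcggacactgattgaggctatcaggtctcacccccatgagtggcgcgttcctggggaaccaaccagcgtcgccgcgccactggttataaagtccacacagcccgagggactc
H2-D1 chr17:35263041-35263070, plus strand: CCAATCAgcgtcgccgcggacgctggttat
H2-Q4 chr17:35379562-35379591, plus strand: CCAATCAtcgtcgccgcgggagcaggttat
In H2-Q10 the capitals mark the interferon-response letters. The Y box letters stood in 7.82% of all windows, in those of 16 of 26 class I members and in those of 7 of 8 class II members with a promoter.

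The other members of the Q region encode Qa antigens and related chains, many of them short-tailed or secreted, although RefSeq lists H2-Q5 as a transcribed pseudogene. H2-Q5 had the lowest log2 change of the tested members on the log2(FPKM + 1) scale, although H2-Q2 was lower with a pseudocount of 0.1 (-0.82 against -0.55). Without control liver 1 the change of H2-Q5 was -0.33, while H2-Q2 was at -0.50 and H2-Q1 at -0.43. Without lipophagy liver 2 H2-Q1 was lower than H2-Q5 (-0.48 against -0.46). H2-Q5 was at 10.5, 8.02 and 6.62 FPKM in control livers and at 4.99, 5.34 and 6.60 FPKM in lipophagy livers (log2 change -0.48, SE 0.158, limma adjusted p = 0.185). Its highest lipophagy value and its lowest control value all but met. H2-Q5 shared 12.9% of its windows with other members, mostly H2-Q7, whose own groups overlapped at 26.1, 25.3 and 32.1 FPKM against 27.9, 28.6 and 24.7 FPKM.

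H2-Q4 was at 32.8, 27.1 and 26.9 FPKM in control livers and at 26.8, 23.3 and 23.4 FPKM in lipophagy livers. The groups did not overlap, by a narrow margin (log2 change -0.23, SE 0.103, limma adjusted p = 0.266). H2-Q1 was at 4.77, 5.80 and 6.37 FPKM against 3.78, 5.37 and 3.73 FPKM (log2 change -0.34, SE 0.142, limma adjusted p = 0.249). In H2-Q1 lipophagy liver 2 lay among the controls. H2-Q2 had means of 0.722 ± 0.341 and 0.349 ± 0.145 FPKM (SD, n = 3), 48.4% of the control mean, on about 7 to 39 fragments per liver. Its log2 change of -0.34 (limma adjusted p = 0.267) depended on the pseudocount and was -0.82 with a pseudocount of 0.1.

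H2-Q8 was at 7.02, 6.12 and 4.69 FPKM in control livers and at 6.06, 4.99 and 5.27 FPKM in lipophagy livers, and H2-Q9 at 14.7, 15.8 and 12.6 FPKM against 13.8, 20.6 and 12.4 FPKM. Both overlapped between groups. H2-Q6 reached 0.262 FPKM, about 17 fragments, in control liver 3 and at most 0.0021 FPKM in any other liver. H2-Q6, H2-Q7, H2-Q8 and H2-Q9 are close copies of each other, so the division of fragments among them is uncertain, and the annotation used here gave no transcript for H2-Q8 and H2-Q9.

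The T region encodes non-classical chains that are seen by natural killer cells and γδ T cells. H2-T23, the Qa-1 molecule that shows leader peptides of other class I chains to natural killer cells, was at 238, 208 and 240.3 FPKM in control livers and at 235, 219 and 236 FPKM in lipophagy livers. The group means differed by less than the spread within either group (log2 change 0.0097, SE 0.0897), and the sign of the change turned under quantile normalization. H2-T10 was at 1.98, 2.03 and 2.29 FPKM against 1.94, 1.65 and 1.78 FPKM, without overlap (log2 change -0.15, SE 0.0829, limma adjusted p = 0.340). RefSeq lists H2-T10 as a transcribed pseudogene. H2-T22, a ligand of γδ T cell receptors, was at 15.6, 18.2 and 16.6 FPKM against 19.8, 16.9 and 18.6 FPKM, with overlap. H2-T10 and H2-T22 shared 6.05% and 8.77% of their windows with other members, so a difference between them is uncertain.

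H2-T9 was at 70.3, 74.7 and 76.9 FPKM in control livers and at 70.7, 69.0 and 71.0 FPKM in lipophagy livers (log2 change -0.072, limma adjusted p = 0.604). H2-T24 had means of 1.03 ± 0.260 and 0.921 ± 0.0728 FPKM (SD, n = 3). H2-M3, which presents peptides that begin with formyl-methionine, was at 2.55, 2.06 and 2.44 FPKM against 2.40, 2.49 and 2.33 FPKM. None of these separated the groups. H2-K2, listed in RefSeq as a transcribed pseudogene (log2 change 0.25), and H2-M2 (0.20) had higher means in lipophagy livers with wide spreads. Values ran from 4.25 to 7.05 FPKM against 5.05 to 9.88 FPKM for H2-K2 and from 0.365 to 0.847 FPKM against 0.493 to 1.02 FPKM for H2-M2. The log2 change of H2-K2 was 0.033 without lipophagy liver 3, 0.058 without control liver 1 and 0.46 without lipophagy liver 1. That of H2-M2 was 0.098 without control liver 3, 0.34 without lipophagy liver 1 and 0.44 with a pseudocount of 0.1. H2-L, a classical chain that the b haplotype of C57BL/6 is known to lack, was nevertheless listed at 12.9 to 21.6 FPKM in control livers, compared with 14.1 to 18.3 FPKM in lipophagy livers, and which gene these fragments came from was not tested.

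**Figure D2:**
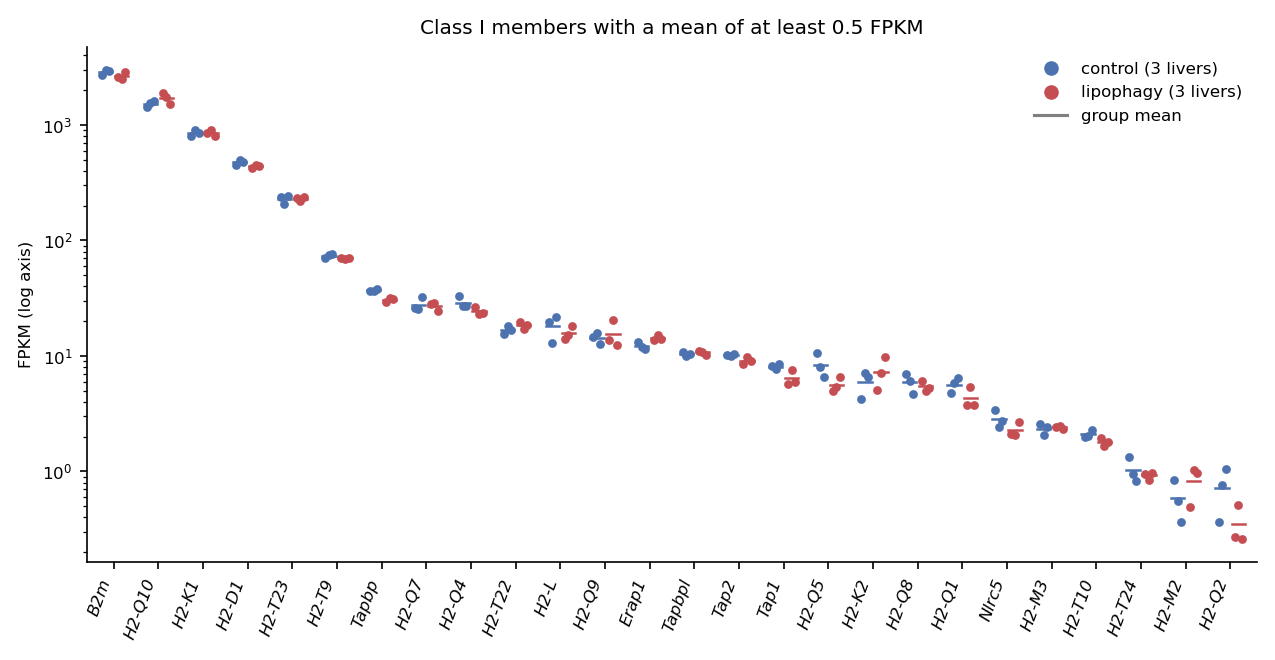
FPKM (vertical axis, logarithmic) of the 26 tested class I members, ordered by mean, with 1 point per liver for 3 control and 3 lipophagy livers and a line at each group mean. Levels ran from B2m at 2507 to 2964 FPKM down to H2-Q2 at 0.260 to 1.04 FPKM, and the groups stood apart with lipophagy livers below for H2-D1, H2-Q4, H2-Q5, H2-T10, Tap1, Tap2 and Tapbp and with lipophagy livers above for Erap1.

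The genes that supply class I molecules with peptides differed in the direction of their log2 change. Tapbp, encoding tapasin and located at chr17:33919478-33929290, had the lowest p of all members. It was at 36.6, 36.3 and 37.6 FPKM in control livers and at 29.4, 31.7 and 30.8 FPKM in lipophagy livers, 83.2% of the control mean. The gap between the groups was wider than the range of either group (log2 change -0.26, SE 0.0715, limma adjusted p = 0.156), and the unadjusted p stayed below 0.05 with any single liver left out.

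Tap1, at chr17:34187556-34197225, was at 8.17, 7.63 and 8.45 FPKM in control livers and at 5.76, 7.54 and 5.94 FPKM in lipophagy livers. Lipophagy liver 2 lay just below the lowest control (log2 change -0.30, SE 0.106, limma adjusted p = 0.204). Without lipophagy liver 2 the log2 change of Tap1 was -0.41 (limma adjusted p = 0.141), and without lipophagy liver 1 it was -0.24 (limma adjusted p = 0.427). Its partner Tap2 showed the same order of livers, with 10.3, 9.92 and 10.4 FPKM against 8.46, 9.81 and 8.95 FPKM (log2 change -0.15, SE 0.0802, limma adjusted p = 0.323).

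Erap1, the peptide-trimming aminopeptidase on chromosome 13, had the opposite direction. It was at 13.2, 12.0 and 11.5 FPKM in control livers and at 13.7, 15.1 and 14.0 FPKM in lipophagy livers, 117% of the control mean. No lipophagy liver lay within the control range (log2 change 0.21, SE 0.0833, limma adjusted p = 0.231), but the unadjusted p was above 0.05 when lipophagy liver 2, control liver 2 or control liver 3 was left out. Tapbpl, which encodes the tapasin-related editor TAPBPR, was at 10.8, 10.1 and 10.4 FPKM against 11.004, 10.9 and 10.3 FPKM, with overlap (log2 change 0.040, SE 0.0735).

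Ratios within each liver set these genes side by side. The ratio of Erap1 to Tap1 was 1.62, 1.57 and 1.36 in control livers and 2.39, 2.01 and 2.36 in lipophagy livers. The ratio of Tapbp to Tapbpl was 3.40, 3.60 and 3.63 in control livers and 2.67, 2.91 and 3.002 in lipophagy livers. Neither ratio overlapped between the groups, and each pair was chosen after its values were seen. Nlrc5, the transactivator of class I genes, was at 3.40, 2.42 and 2.73 FPKM against 2.12, 2.06 and 2.65 FPKM, and lipophagy liver 3 lay among the controls (log2 change -0.23, SE 0.118, limma adjusted p = 0.314). Control liver 1 stood above the other controls, and without it the log2 change of Nlrc5 was -0.13.

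**Figure D3:**
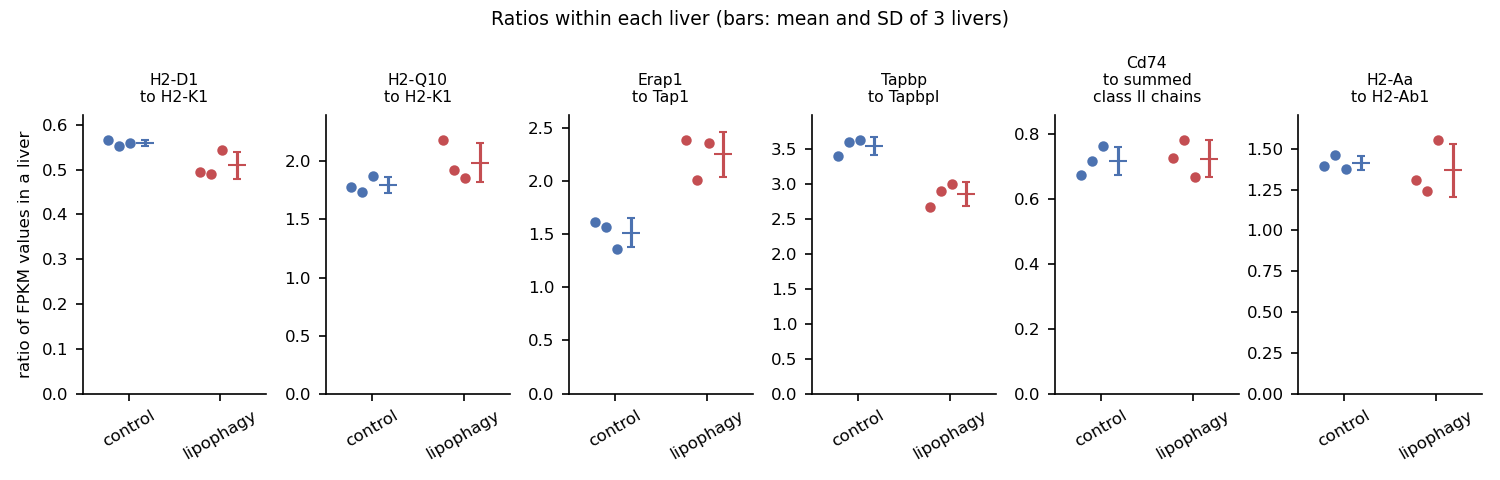
Ratios of FPKM values within each liver on axes that start at 0, with 1 point per liver and the mean and SD of 3 livers beside them. H2-D1 to H2-K1 and Tapbp to Tapbpl lay lower and Erap1 to Tap1 lay higher in all lipophagy livers, while H2-Q10 to H2-K1, Cd74 to the summed class II chains and H2-Aa to H2-Ab1 overlapped.

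Class II molecules are pairs of an α chain and a β chain, and in the b haplotype of C57BL/6 only the A pair, H2-Aa with H2-Ab1, is made, because the gene of the Eα chain is defective. H2-Aa, at chr17:34282744-34287823, was at 94.1, 90.3 and 95.4 FPKM in control livers and at 70.6, 81.7 and 82.4 FPKM in lipophagy livers. All lipophagy livers lay below all controls (log2 change -0.25, SE 0.0870, limma adjusted p = 0.199). H2-Ab1, at chr17:34263227-34269418, was at 67.4, 61.7 and 69.2 FPKM against 54.0, 65.8 and 53.1 FPKM, and lipophagy liver 2 lay among the controls (log2 change -0.20, SE 0.103, limma adjusted p = 0.317).

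H2-Eb1, the β chain left without its partner and located at chr17:34305867-34316674, was at 45.1, 45.3 and 50.3 FPKM in control livers and at 36.3, 44.9 and 36.0 FPKM in lipophagy livers. Lipophagy liver 2 missed the lowest control narrowly, whereas the other lipophagy livers lay well below (log2 change -0.26, SE 0.105, limma adjusted p = 0.236). With single livers omitted, the log2 change of H2-Eb1 ran from -0.36 without lipophagy liver 2 (limma adjusted p = 0.162) to -0.21 without lipophagy liver 3 (limma adjusted p = 0.310). H2-Aa, H2-Ab1 and H2-Eb1 shared none of their 100-base windows with other members, so no stretch of that length was common to them and another member. Their summed level was 206 ± 8.79 FPKM in control livers, compared with 175 ± 16.1 FPKM in lipophagy livers (SD, n = 3), and the 3 lipophagy livers at 161, 192 and 172 FPKM lay below the lowest control at 197 FPKM.

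**Figure D4:**
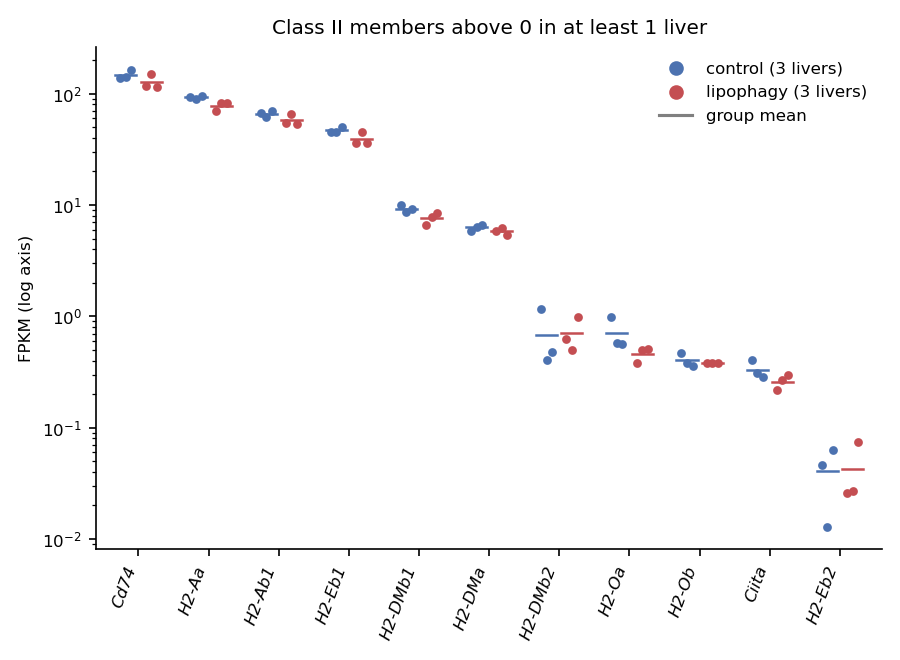
FPKM (vertical axis, logarithmic) of the 11 class II members above 0 in at least 1 liver, ordered by mean, with 1 point per liver for 3 control and 3 lipophagy livers and a line at each group mean. For Cd74, H2-Ab1 and H2-Eb1 the highest lipophagy point is lipophagy liver 2, and the lowest members are Ciita and H2-Eb2.

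The promoters of H2-Aa and H2-Eb1 are shown with the Y box letters TGATTGG in capitals. They were chosen after the values were seen, as class II chains whose groups did not overlap. The sequences are the 120 bases before each start in RefSeq (GRCm38.p6), 5′ to 3′ on the strand of the gene.
H2-Aa chr17:34287824-34287943, minus strand: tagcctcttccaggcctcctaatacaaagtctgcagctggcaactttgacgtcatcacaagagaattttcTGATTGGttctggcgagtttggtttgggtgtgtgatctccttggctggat
H2-Eb1 chr17:34305747-34305866, plus strand: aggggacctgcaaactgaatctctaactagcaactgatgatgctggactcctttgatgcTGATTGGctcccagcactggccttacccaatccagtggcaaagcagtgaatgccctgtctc
The Y box began 50 bases before the start of H2-Aa and 61 bases before that of H2-Eb1. All 7 class II members with a match read TGATTGG on the strand of the gene, among them H2-DMb2, whose log2 change was 0.034. Whether the box has a part in the values was not tested. Of the 16 class I members with a match, 15 read CCAATCA on that strand and H2-T22 read TGATTGG.

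Cd74, the invariant chain, had the highest level of class II members. It was at 139, 142 and 164 FPKM in control livers and at 117, 150.4 and 114 FPKM in lipophagy livers, where lipophagy liver 2 lay among the controls (log2 change -0.23, SE 0.125, limma adjusted p = 0.342). With single livers omitted, the log2 change of Cd74 ran from -0.35 without lipophagy liver 2 (limma adjusted p = 0.193) to -0.15 without control liver 3 (limma adjusted p = 0.606). The ratio of Cd74 to the summed class II chains was 0.675, 0.718 and 0.762 in control livers and 0.726, 0.781 and 0.666 in lipophagy livers, so the groups overlapped in the proportion of the invariant chain to the chains it guards.

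H2-DM, made of H2-DMa with H2-DMb1 or H2-DMb2, loads peptides onto class II molecules, and H2-O, made of H2-Oa with H2-Ob, holds it back. H2-DMb1 was at 9.95, 8.58 and 9.20 FPKM in control livers and at 6.59, 7.77 and 8.40 FPKM in lipophagy livers, without overlap (log2 change -0.26, SE 0.102, limma adjusted p = 0.231). H2-DMa was at 5.88, 6.39 and 6.60 FPKM against 5.84, 6.23 and 5.33 FPKM, and lipophagy liver 2 lay within the control range (log2 change -0.10, SE 0.0854, limma adjusted p = 0.524). Without lipophagy liver 3 the log2 change of H2-DMa was -0.050. H2-DMb2 was the tested class II member with a higher mean in lipophagy livers, at 0.702 ± 0.253 FPKM against 0.682 ± 0.415 FPKM (SD, n = 3), and it shared 12.9% of its windows with H2-DMb1. The sign of its change turned when control liver 2, control liver 3 or lipophagy liver 3 was left out.

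H2-Oa had means of 0.705 ± 0.236 FPKM in control livers, compared with 0.461 ± 0.0676 FPKM in lipophagy livers (SD, n = 3), without overlap, on about 11 to 31 fragments per liver (log2 change -0.21, SE 0.108, limma adjusted p = 0.309). Control liver 1 at 0.977 FPKM stood above the other controls at 0.571 and 0.566 FPKM, and without it the log2 change of H2-Oa was -0.10. With a pseudocount of 0.1 its log2 change was -0.49. H2-Ob was at 0.360 to 0.473 FPKM in control livers, compared with 0.380 to 0.383 FPKM in lipophagy livers, below the level at which genes were tested. Ciita, the transactivator of class II genes, was likewise untested, at 0.405, 0.308 and 0.284 FPKM in control livers and at 0.216, 0.267 and 0.295 FPKM in lipophagy livers, with overlap. H2-Eb2, a further β chain gene, did not exceed 0.0745 FPKM.

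Class II members were then compared liver by liver. Relative to the mean of the 6 livers, the median log2 deviation of the 8 tested class II members was 0.13, 0.043 and 0.14 in control livers 1, 2 and 3. It was -0.21, -0.010 and -0.11 in lipophagy livers 1, 2 and 3. The highest liver was control liver 3 for 5 members and control liver 1 for 3 members, while lipophagy liver 2 stood nearest to the controls. For class I members the same medians ran only from -0.058 to 0.049.

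Genes that act beside the members were counted from lists. Their counts stand beside all tested genes, of which 45.5% had a log2 change below 0. At an unadjusted p below 0.05, 7.97% of all tested genes were lower and 11.5% higher. In the interferon γ pathway, which induces both MHC classes, 6 of 8 tested genes had a lower mean in lipophagy livers, 3 with an unadjusted p below 0.05 and 0 with an adjusted one (median log2 change -0.14). Among them were Ifngr1, a receptor chain (-0.32, SE 0.0796, limma adjusted p = 0.135), and Irf8 (-0.24, limma adjusted p = 0.204). Ifngr1 was at 13.1, 13.4 and 12.8 FPKM in control livers and at 9.69, 11.1 and 10.05 FPKM in lipophagy livers, without overlap, and Irf2 had the highest change of the list (0.17, limma adjusted p = 0.503). The cytokine gene Ifng itself stayed below the level at which genes were tested. None of 7 genes of the promoter complex had an unadjusted p below 0.05, from Rfx5 (-0.21, limma adjusted p = 0.294) to Nfyc (0.11, limma adjusted p = 0.483).

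Of 7 genes of the immunoproteasome and its activator, which cut class I peptides, Psmb9 was lower at an unadjusted p below 0.05 (-0.29, SE 0.0924, limma adjusted p = 0.184) and 0 were higher, with Psme3 at the other end (0.11, limma adjusted p = 0.486). Psmb9 was at 24.9, 22.7 and 23.8 FPKM in control livers and at 18.1, 21.8 and 18.3 FPKM in lipophagy livers, and like its neighbour Tap1 it was highest among lipophagy livers in liver 2. All 5 general chaperones of the endoplasmic reticulum that also fold class I chains had a higher mean in lipophagy livers, 3 with an unadjusted p below 0.05. Of all tested genes 11.5% were higher at such a p, and 45.5% had a log2 change below 0. The chaperones ran from Hspa5, encoding BiP (0.87, SE 0.224, limma adjusted p = 0.144), to Canx, encoding calnexin (0.14, limma adjusted p = 0.415). Of 8 proteases and reductases of the class II compartment 0 had an unadjusted p below 0.05 in either direction, from Ctss, which cuts the invariant chain (-0.20, limma adjusted p = 0.327), to Ctsh (0.22, limma adjusted p = 0.267).

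Of 6 tested genes for MHC-like proteins encoded outside the H2 region, 5 had a higher and 1 a lower mean in lipophagy livers. The highest log2 change was that of Azgp1 (0.23, limma adjusted p = 0.222) and the lowest that of Procr (-0.29, limma adjusted p = 0.177). All 4 tested co-stimulation genes had a lower mean, against 45.5% of all tested genes with a log2 change below 0. At an unadjusted p below 0.05 stood 1 of them, against 7.97% of all tested genes that were lower at such a p. It was Cd274, which encodes the inhibitory ligand PD-L1 (-0.33, limma adjusted p = 0.137), and Cd86 was the closest to 0 (-0.083, limma adjusted p = 0.728). Of 7 T cell receptor partners such as Cd4 and Cd8a only 2 reached the level at which genes were tested, Cd3g (0.0018) and Lag3 (0.072). No gene of these 8 lists had an adjusted p below 0.05 (limma).

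In whole liver, fewer cells of a type and less RNA per cell cannot be told apart, so the markers of cells that make class II molecules are given beside the class II values. Over all tested genes 45.5% had a log2 change below 0, and 7.97% were lower and 11.5% higher at an unadjusted p below 0.05. Of 11 tested macrophage and Kupffer cell markers 7 had a lower mean in lipophagy livers, and all 12 listed markers summed to 845 to 1058 FPKM in control livers, compared with 808 to 972 FPKM in lipophagy livers. They split, with Cd68 (-0.38, limma adjusted p = 0.186) and Csf1r (-0.28, limma adjusted p = 0.151) lower and Vsig4, a marker of resident Kupffer cells, higher (0.40, limma adjusted p = 0.161) at an unadjusted p below 0.05. All 6 monocyte markers had a lower mean, 5 with an unadjusted p below 0.05, from Ly6c2 (-0.45, limma adjusted p = 0.160) to Fn1 (-0.065, limma adjusted p = 0.767), and their sum, mostly Fn1, was 93.3 to 117 FPKM against 90.2 to 103 FPKM. Their part in the class II values was not tested.

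Only 3 of 10 dendritic cell markers were tested, and all 10 summed to 7.80 to 9.30 FPKM in control livers, compared with 6.88 to 7.58 FPKM in lipophagy livers. Itgax, with means of 3.84 and 3.04 FPKM, was the largest part of that sum, while Clec9a and the untested Ccr7 had higher means in lipophagy livers. The tested dendritic cell markers ran from Itgax (-0.27, limma adjusted p = 0.273) to Clec9a (0.064, limma adjusted p = 0.812). For B cells 3 of 8 markers were tested and the sums over all 8 overlapped, at 3.65 to 5.77 FPKM against 3.04 to 4.94 FPKM, with log2 changes from Cd22 (-0.15) to Cd79b (0.093). T and NK cell markers had 3 of 10 tested, from Nkg7 (-0.27, limma adjusted p = 0.254) to Cd2 (0.053), and all 10 summed to 5.09 to 6.02 FPKM against 3.60 to 5.75 FPKM. No marker was at 0 in every liver. Among non-immune cells, 7 sinusoidal endothelial markers ran from Pecam1 (-0.11) to Clec4g (0.43), 4 bile duct markers from Epcam (-0.55) to Sox9 (-0.060) and 8 hepatocyte markers from Apoa1 (-0.062) to Tat (0.995, limma adjusted p = 0.211).

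**Figure D5:**
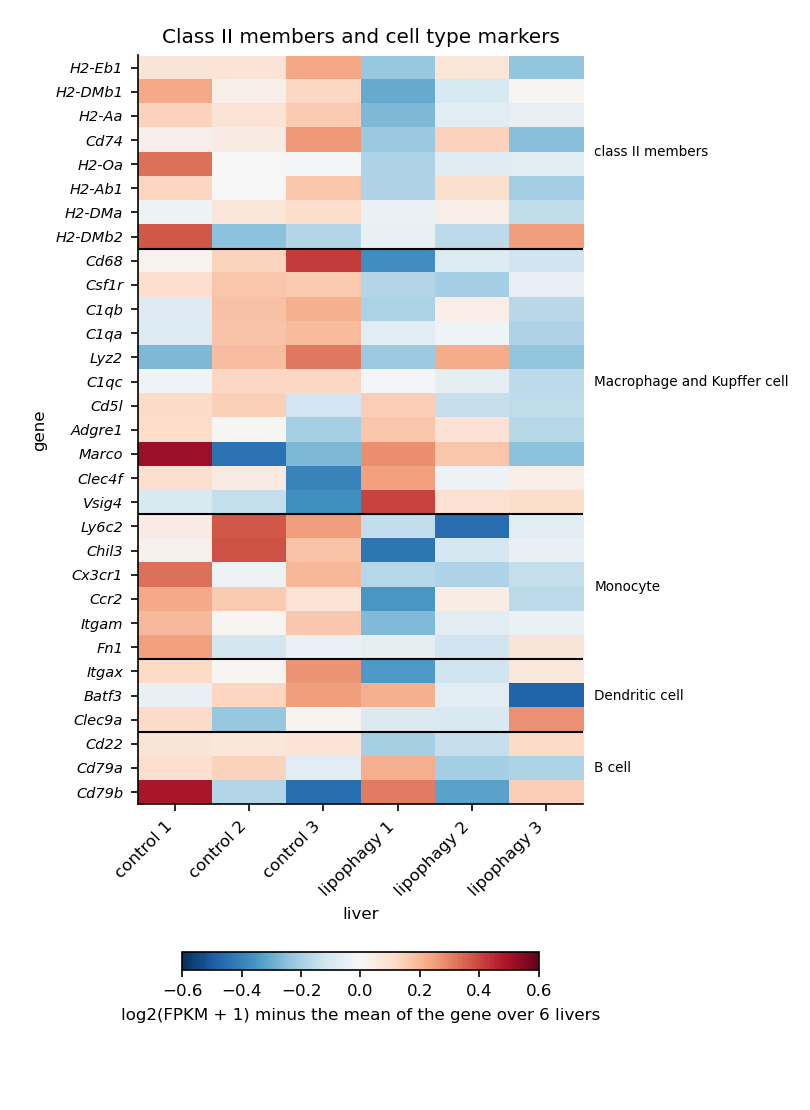
Difference of log2(FPKM + 1) from the mean of each gene over the 6 livers, coloured from blue (lower) to red (higher), for the 8 tested class II members and the tested markers of macrophages, monocytes, dendritic cells and B cells (rows) in each liver (columns). Among class II members lipophagy liver 1 is lowest for H2-DMb1, H2-Aa and H2-Oa, and the Kupffer cell markers Vsig4 and Clec4f show another order of livers than Cd68 and Csf1r.

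The members at 0 in every liver were the class II pseudogene H2-Ea-ps and the class I rows H2-M1, H2-M9, H2-M10.1 to H2-M10.6, H2-M11 and H2-T3. Genes of the H2-M1 and H2-M10 groups are known from sensory neurons of the vomeronasal organ and H2-T3 from the intestinal epithelium. H2-Bl, at 0.235 to 0.487 FPKM in control livers, compared with 0.169 to 0.324 FPKM in lipophagy livers, and H2-M5, at most 0.0436 FPKM, were detected below the level at which genes were tested. H2-Ke6, named for its place in the MHC but encoding a hydroxysteroid dehydrogenase, was at 84.8, 97.5 and 98.3 FPKM against 119, 106 and 94.0 FPKM (log2 change 0.18, SE 0.109, limma adjusted p = 0.383), with lipophagy liver 3 among the controls. The log2 change of H2-Ke6 was 0.095 without lipophagy liver 1, 0.11 without control liver 1 and 0.018 under quantile normalization.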

How the data were processed

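RNA of 6 livers had been sequenced in paired-end mode from stranded poly(A) libraries. The authors deposited FPKM values per gene symbol, and the labels' processing notes name TopHat2 2.0.13, Bowtie2 2.2.3, SAMtools 0.1.19, Cufflinks 2.2.1 and the build mm10. FPKM values are scaled to transcript length and mapped fragments, so no count model was used. From them log2(FPKM + 1) was computed, genes averaging 0.5 FPKM or more were kept, and limma 3.58.1 in R 4.3.3 was fitted with an intensity trend on 3 control and 3 lipophagy livers, two-sided, with Benjamini-Hochberg adjustment over all 11493 genes and a threshold of 0.05. The procedure was tested on simulated data with a log2 change of 1 in 200 genes, and it recovered 99% of them. Changes as small as those of the members were not simulated.

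Groups and replicate numbers came from the sample titles. All members past that filter were named, and of each other list the genes with the highest and lowest log2 change and those whose role is described. The values of 1 listed gene are not reported here. Members and lists were chosen with earlier results of these data known. Depth was estimated from steps in low FPKM values and transcript lengths of GENCODE M21 (GRCm38) less 150 bases, and covers counting error only. Alternatives were pseudocounts of 0.1 and 0.5, no filter or 0.1 or 1 FPKM, quantile normalization, equal medians, no trend, the replicate number as a block and each liver left out. The table holds 27 names turned into dates, among them 2 rows named 1-Mar, so the class II regulator March1 is not reported here. Whether counting used strand is not given in the sources used here.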

Additional observations from a re-analysis of the deposited data

How the results depend on the processing

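Of 520 values of the 35 tested members over 15 alternatives, 501 kept their direction and 19 turned it, and no member had an adjusted p below 0.05 (limma) under any of them. Under quantile normalization the median log2 change was -0.18 for class I and -0.33 for class II, 14 members were lower and 0 higher at an unadjusted p below 0.05, and the change turned to -0.21 for H2-K1, -0.022 for H2-Q10, -0.18 for H2-T23, 0.0084 for H2-T24 and -0.015 for Tapbpl. A pseudocount of 0.1 gave a class I median of -0.11, and with no filter 1 of all genes passed the adjusted threshold. Leaving out single livers, the class I median ranged from -0.091 to -0.073, the class II median from -0.28 to -0.17, the lower members from 2 to 9, the higher members from 0 to 2 and the genes passing the adjusted threshold from 1 to 11. For 22 of the 35 tested members, omitting 1 liver moved the log2 change by more than 1.5 times or turned it, among them H2-Q4 at -0.14 without control liver 1 and H2-Q2 at -0.21 without control liver 3. Without turning, the change then ranged from -0.36 to -0.015 for H2-L, 0.077 to 0.18 for H2-T22, -0.11 to -0.044 for H2-T9 and 0.018 to 0.068 for Tapbpl. Changes that turned then ranged from -0.083 to 0.23 for H2-DMb2, -0.029 to 0.059 for H2-K1, -0.035 to 0.071 for H2-M3, -0.096 to 0.068 for H2-Q7, -0.23 to 0.013 for H2-Q8, -0.12 to 0.23 for H2-Q9, -0.058 to 0.047 for H2-T23 and -0.15 to 0.026 for H2-T24. The cause of these shifts was not tested. Livers with the same replicate number correlated at 0.25, 0.234 and -0.057 in their deviations from the group means. Livers with different numbers correlated at -0.387 to 0.251, so these values do not decide whether the numbers pair livers. With the replicate number as a block, 43 genes passed the adjusted threshold, and at an unadjusted p below 0.05 there were 8 lower and 0 higher members, against 7.93% and 9.86% of all genes. About 11 to 41 fragments per liver lay behind the lowest class II members tested, H2-Oa and H2-DMb2, which limits their precision.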
